A study of Ambystoma mexicanum with 12 samples.

Results

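Wrist-level forelimb blastemas of the axolotl that had been exposed to 1 uM talarozole were set against upper-arm blastemas that had received only the solvent. These 2 groups made up 6 of the 12 libraries in the data, with 3 libraries each. They were taken by treatment and amputation level as labelled. Genes with an identifier that begins AMEX60DD, but not AMEX60DDU, were described, which are 56805 of the 99081 identifiers.

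All animals were white (d/d) Ambystoma mexicanum of 3 months and 5 cm, and all blastemas were frozen 14 days post amputation (dpa) in pools of 3. The 1 uM TAL group had been cut through the carpals and kept in water with 1 uM talarozole (TAL), dissolved in dimethyl sulfoxide (DMSO). The DMSO proximal group had been cut through the upper humerus and kept in water with DMSO alone. In both groups exposure began at 4 dpa and went on for 7 days, so no animal was under drug or solvent when its tissue was taken. The other 6 libraries were distal blastemas with DMSO alone and with 0.1 uM TAL, 3 of each, and they entered the fit to estimate the spread of each gene. The labels do not say whether pools came from separate animals, so p-values measure the spread between these pools.

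A blastema is the growth of dividing cells on a limb stump from which the missing part is rebuilt, and what it rebuilds depends on the level of the cut. Retinoic acid is known as a signal of proximal identity in salamander limbs, and distal blastemas given it can rebuild structures that lie above the cut. CYP26 enzymes clear retinoic acid and talarozole inhibits them. The comparison asks what still differs between a distal blastema exposed to this inhibitor and a proximal one given only DMSO. The data hold no measure of retinoic acid or of CYP26 activity.

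The deposited table pairs no identifier with a gene name, and none was found among the genes that RefSeq lists for the UKY_AmexF1_1 assembly (0 of 99081). Genes are therefore given by identifier, at most 2 in each direction. Lists of retinoic acid, limb patterning and cell type genes could not be applied, and the tissue was not checked against its markers. No sequence is shown for the same reason.

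Total counts ranged from 11977731 to 13937283 in the 1 uM TAL libraries and from 8409686 to 9877814 in the DMSO proximal libraries, so the groups did not overlap in depth. AMEX60DD identifiers took 89.1 to 91.1% of counts in the 1 uM TAL libraries and 87.0 to 89.3% in the DMSO proximal libraries. At full depth 27639 to 28111 AMEX60DD identifiers had at least 1 count at 1 uM TAL, against 25552 to 27183 in DMSO proximal. With all libraries thinned to the smallest total the ranges were 26696 to 27285 and 25527 to 26900, and they overlapped.

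A library of each group stood apart in its most abundant transcript. AMEX60DD016881 held 3.93% and 3.88% of counts in 1 uM TAL replicates 2 and 3, but 0.321% (95% Wilson interval 0.318 to 0.324%) in replicate 1. It held 3.29% and 3.68% in DMSO proximal replicates 1 and 3, but 0.933% (0.926 to 0.939%) in replicate 2. These intervals cover counting error only. The group means of this identifier did not differ beyond their spread, at 27450 ± 21200 CPM (SD, n = 3) for 1 uM TAL and 26230 ± 14200 CPM (SD, n = 3) for DMSO proximal. CPM are counts per 1000000 of the scaled library total. The counts of differing identifiers and the comparison with low-dose fold changes are also given without these 2 libraries. The spread within groups is given only with both. So are the counts by level, of identifiers present in a single group and of identifiers that set a group apart.

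By rank correlation and by median SD, high-dose pools resembled each other more closely than the proximal pools did. Spearman correlations of log2 CPM over the 21537 AMEX60DD identifiers that passed the filter on low counts were 0.896 to 0.913 between 1 uM TAL libraries. Between DMSO proximal libraries they were 0.849 to 0.860. The SD of log2 CPM within the group had a median over identifiers of 0.24 at 1 uM TAL and 0.39 in DMSO proximal. For identifiers with a mean of at least 10 CPM in the 6 libraries the medians were 0.15 and 0.27. The SD was larger at 1 uM TAL than in DMSO proximal for 32% of identifiers. The 1 uM TAL libraries were also the deeper ones, and the part of depth in this spread was not tested. Chi-square per degree of freedom between replicates gave another order. It was 65.4 and 66.5 for 1 uM TAL replicate 1 with replicates 2 and 3, and 13.6 between replicates 2 and 3. Between DMSO proximal libraries it was 23.6 to 48.1.

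Across the 2 groups the 9 pairs of libraries correlated at 0.818 to 0.900, with a median of 0.848. The upper end of that range belongs to DMSO proximal replicate 1. This library correlated at 0.886 to 0.900 with the 1 uM TAL libraries but at a mean of 0.855 with the other proximal libraries. DMSO proximal replicate 2 averaged 0.852 with the 1 uM TAL libraries and 0.853 with its own group. For replicate 3 the means were 0.833 and 0.859. Among the proximal pools, then, replicate 3 was the least like the treated tissue. Replicate 1 was more like that tissue than like its own group. It also correlated at 0.863 to 0.891 with the DMSO distal and at 0.872 to 0.880 with the 0.1 uM TAL libraries. These values lay above its 0.849 and 0.860 with the other proximal libraries, so the likeness was not particular to 1 uM TAL. Genes are the points of each correlation, and they do not vary independently.

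Each 1 uM TAL library correlated slightly better with the distal than with the proximal vehicle libraries. The means were 0.869 and 0.855 for replicate 1, 0.884 and 0.863 for replicate 2, and 0.877 and 0.860 for replicate 3. Taken over the group, the mean with DMSO proximal was lower by 0.0174 than the mean with DMSO distal (0.859 against 0.877). Exchanging the labels of the 6 vehicle libraries gave an exact two-sided permutation p of 0.6, where 0.1 is the smallest that 20 arrangements allow. The difference is thus within the spread between vehicle pools, in a design that cannot reach 0.05. Leaving out 1 library moved it between -0.0343 and -0.0044, the latter without DMSO proximal replicate 3. In the map of library pairs the block of the 1 uM TAL libraries has the highest median, 0.908.

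**Figure D1:**
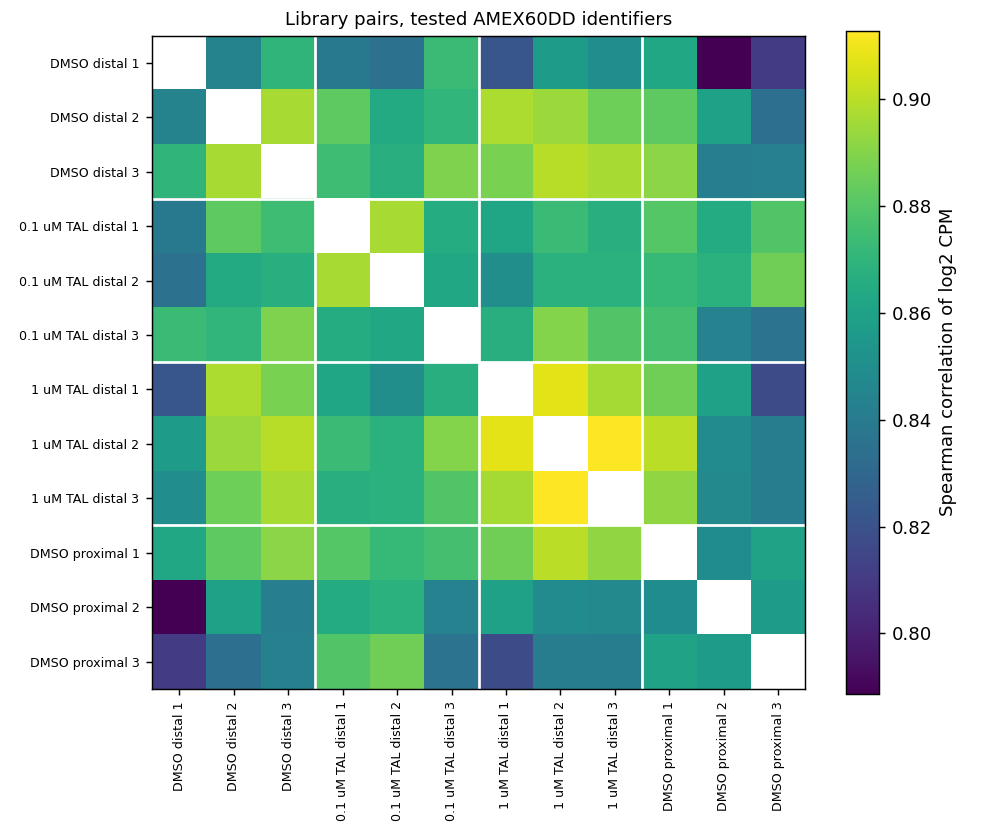
Spearman correlation of log2 CPM between each pair of the 12 libraries over 21537 tested AMEX60DD identifiers; rows and columns are libraries, ordered by group and replicate, and white lines part the groups. The 1 uM TAL libraries correlate at 0.896 to 0.913 with each other. DMSO proximal replicate 1 correlates better with the libraries of every distal group than with the other proximal libraries.

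No AMEX60DD gene passed the test for a difference between the groups. The edgeR quasi-likelihood test, fitted to all 12 libraries and adjusted by the Benjamini-Hochberg method over all 41884 identifiers tested, called 0 of the 21537 AMEX60DD identifiers at an adjusted p under 0.05. It called 0% of all identifiers, and the lowest adjusted p of an AMEX60DD identifier was 0.183. The DESeq2 Wald test called 316, 167 higher and 149 lower, and limma voom with sample weights called 2. The edgeR test called 2, both lower, when only the 6 libraries were fitted or when 0.1 uM TAL replicate 3 was left out, and 1, lower, without 1 uM TAL replicate 3. Calls over all identifiers are not given for these other tests and fits. Their numbers are therefore no result about AMEX60DD identifiers in particular. At an unadjusted p under 0.05 there were 1877 AMEX60DD identifiers, or 8.72%, where 1076.9 would lie under that limit if p-values were uniform. Over all identifiers 6.76% lay under it. Since bulk tissue was measured, fewer cells of a type and less RNA per cell cannot be told apart in any of these values.

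By the order of CPM alone, which depends on how libraries are scaled, the 2 groups kept apart in many identifiers. All 3 libraries at 1 uM TAL lay above all 3 DMSO proximal libraries in 3293 AMEX60DD identifiers, or below them in 1145, together 20.6% of those tested. Were the 6 libraries exchangeable, a share of 0.1 would lie apart in this way, ties aside. Over all 41884 identifiers 3839 (9.17%) lay above and 2177 (5.20%) below, and the share of AMEX60DD identifiers below was near the latter. The AMEX60DDU identifiers held fewer such cases, 7.76%, and their median log2 fold change was -0.29, against 0.09 for AMEX60DD. When DMSO proximal replicate 2 and 1 uM TAL replicate 1 were both left out, 918 of 22961 tested AMEX60DD identifiers had an unadjusted p under 0.05. Of these 0 were called. Leaving out a single library of the compared groups gave between 1002 of 23427 (without DMSO proximal replicate 3) and 2817 of 23380 (without DMSO proximal replicate 1). Without 1 uM TAL replicate 1, 2 or 3 the numbers were 1100 of 23123, 1163 of 23154 and 1242 of 23119. Uniform p-values would place a share of 0.05 under the limit. Without both libraries, DMSO proximal replicate 3 or any 1 uM TAL library, the share was below or near that. Shares over all identifiers are not given for these fits.

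Of the 1877 identifiers, 1358 were higher at 1 uM TAL and 519 lower, out of 21537 tested. Over all 41884 identifiers tested, 1683 (4.02%) were higher and 1147 (2.74%) lower. The share of higher ones was thus larger among AMEX60DD identifiers than among all, and that of lower ones was smaller. Within the 1877 the median absolute log2 fold change was 0.98 among the higher ones, a 1.97-fold difference. It was 1.22 among the lower ones, a 2.32-fold difference. For these medians a group at 0 in all 3 libraries, which was the case in 100 and 87 identifiers, was set to a floor of 3 counts per library. On this scale 663 of the higher and 310 of the lower identifiers differed at least 2-fold, and 200 and 142 at least 4-fold. Among all 21537 the median was 0.35, and 17.3% differed at least 2-fold. The limit on p selects for large differences, so these sizes describe the identifiers and are no estimate of a true difference.

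Among identifiers under this limit on p, the balance of directions changed with the scaling, the identifiers fitted, depth and the filter. With factors computed by the TMM method over all identifiers, 72.3% of the identifiers under the limit were higher at 1 uM TAL. With the size factors of DESeq2 the share was 54.6%, 1050 higher and 872 lower. With AMEX60DD identifiers alone in the fit, which then also set the TMM factors, it was 47.0%, 1345 higher and 1514 lower. The lower ones then prevailed. This setting also changed the set tested (21504 identifiers) and the fit, and 2859 identifiers lay under the limit. The parts of scaling and of the refit were not told apart. The median log2 fold change over AMEX60DD identifiers was 0.09, 0.01 and -0.01 in that order. In each of these 3 settings, 1010 identifiers were higher and 519 lower at an unadjusted p under 0.05. These were 74.4% of the higher and 100% of the lower ones under the TMM factors of all identifiers. The setting with TMM factors of all identifiers thus sets the size of the lower set, and the balance of the 2 numbers depends on the setting too. Of the identifiers without overlap between the groups 74.2%, 59.3% and 53.6% were higher at 1 uM TAL, so there the share shrank but higher ones prevailed in each of the 3 settings. With libraries thinned to equal depth, 63.0% of those under the limit on p (1103 higher, 649 lower) and 62.6% of those without overlap were higher. With at least 10 counts in every library these shares were 54.3% (1050 higher, 885 lower) and 56.2%. The bar chart of directions shows the turn among identifiers under the limit on p.

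**Figure D2:**
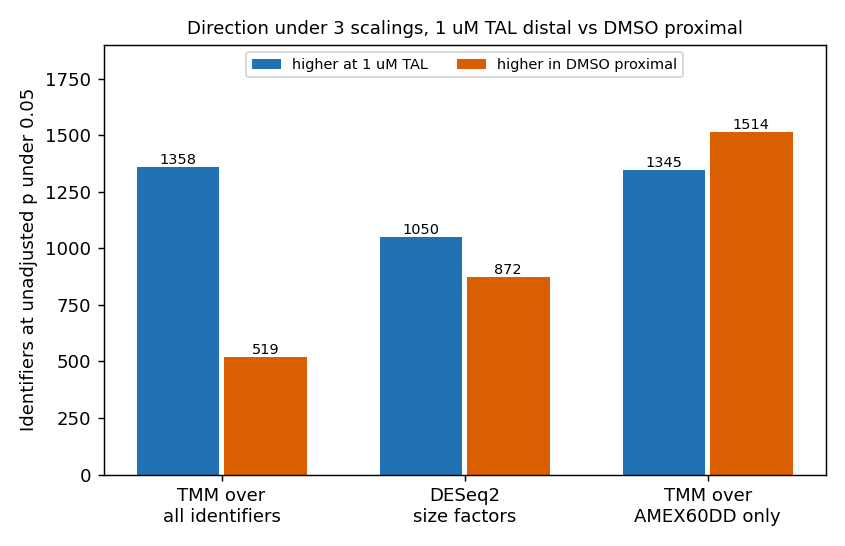
Number of AMEX60DD identifiers at an unadjusted p under 0.05 between 1 uM TAL distal and DMSO proximal libraries (bars, by direction) in 3 settings. In the third setting AMEX60DD identifiers alone entered both the TMM factors and the fit. The identifiers higher at 1 uM TAL number 1358, 1050 and 1345, and those higher in DMSO proximal number 519, 872 and 1514.

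Under the TMM factors, AMEX60DD identifiers of middle abundance most often had an unadjusted p under 0.05 or no overlap. The part of count size in these shares was not tested, and shares over all identifiers were not computed by level. Among identifiers with a mean of 10 to 100 CPM in the 6 libraries, 738 of 5534 (13.3%) had an unadjusted p under 0.05 and 25% showed no overlap between the groups. Of those at 1 to 10 CPM the shares were 7.65% and 21.3% of 12249. At 100 CPM or more they were 8.57% and 16.6% of 922, and under 1 CPM they were 4.34% and 10.4% of 2832. Higher identifiers prevailed under the TMM factors in every band, from 61.0% under 1 CPM to 75.6% at 10 to 100 CPM. The median log2 fold change was positive in the bands below 100 CPM, at 0.08, 0.11 and 0.08, and -0.03 at 100 CPM or more. The plot of fold change against level shows the same bands.

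**Figure D3:**
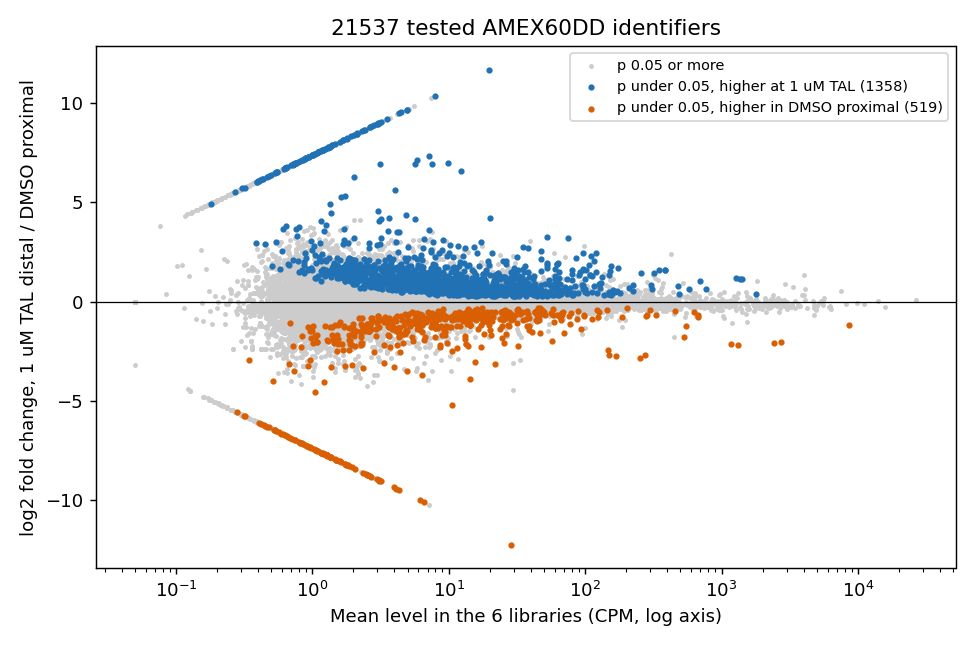
log2 fold change of 1 uM TAL distal over DMSO proximal (vertical) against mean level in the 6 libraries in CPM (horizontal, log axis) for 21537 tested AMEX60DD identifiers; coloured points had an unadjusted p under 0.05, 1358 higher at 1 uM TAL and 519 higher in DMSO proximal. The straight outer lines are identifiers with 0 counts in all 3 libraries of a group, whose fitted fold change is set by the prior count and is no measure of size.

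Of the 56805 AMEX60DD identifiers, 112 had at least 5 counts in every 1 uM TAL library and 0 in every DMSO proximal library. The opposite held for 27. After thinning to equal depth the numbers were 71 and 25, so the excess at 1 uM TAL was smaller at equal depth. The deposited values are not whole reads, and a value of 5 can rest on few reads in some genes. Such identifiers were not counted over all 99081, so the excess is no result about AMEX60DD identifiers in particular. Among AMEX60DDU identifiers without overlap between the groups, 546 were higher at 1 uM TAL and 1032 lower.

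The 2 identifiers with the lowest p in each direction, among those without overlap and with a mean of at least 1 CPM in either group, fell into different patterns across the 4 groups. None of the 4 passed the adjusted test, and the rule that chose them used this comparison, so their values are descriptions. The plot of their levels shows every library.

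**Figure D4:**
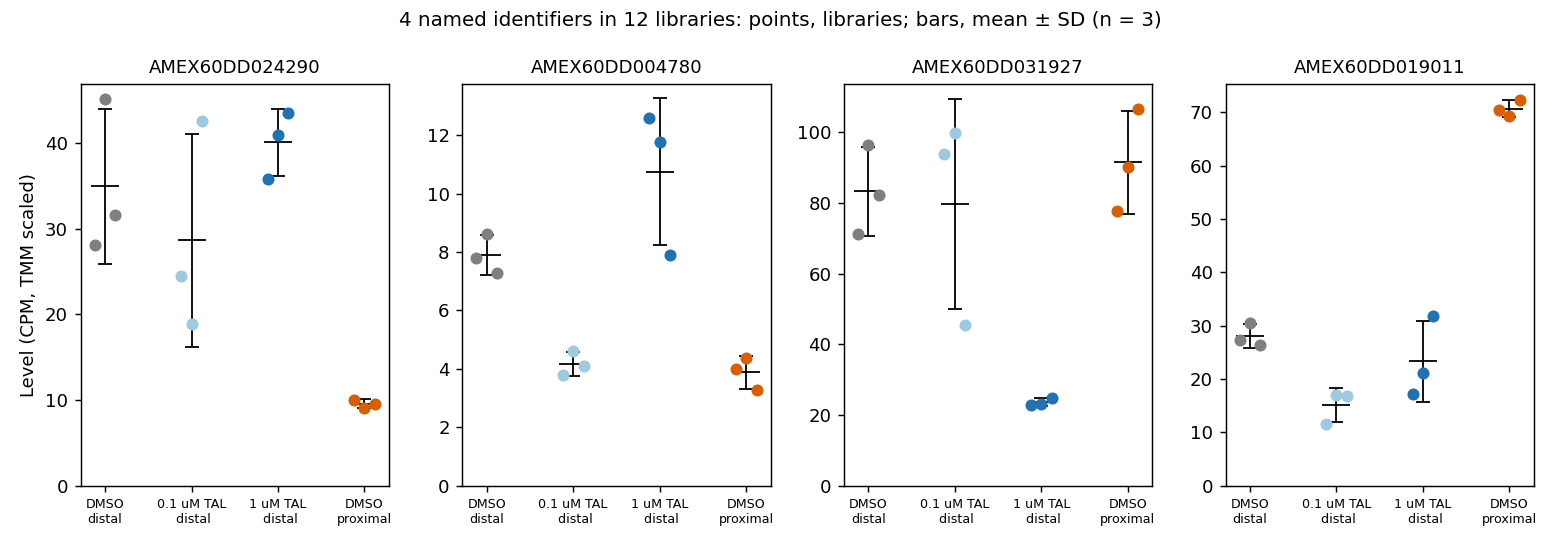
Level in CPM after TMM scaling of the 4 named identifiers, 1 panel each, in the 4 groups; points are libraries and bars show the mean ± SD (n = 3). AMEX60DD024290 and AMEX60DD019011 set the DMSO proximal libraries apart from all distal ones, and AMEX60DD031927 sets the 1 uM TAL libraries apart.

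Of the higher identifiers AMEX60DD024290 ranked first. It stood at 35.8, 41.0 and 43.5 CPM in 1 uM TAL replicates 1 to 3 and at 10.1, 9.04 and 9.60 CPM in the DMSO proximal replicates. The groups did not overlap, with a log2 fold change of 2.06 (SE 0.295, 95% interval 1.40 to 2.73, edgeR adjusted p 0.183). The distal groups without 1 uM TAL were near the treated level, at 34.9 ± 9.01 CPM (SD, n = 3) with DMSO and 28.6 ± 12.4 CPM (SD, n = 3) with 0.1 uM TAL. Every proximal library lay below all 9 distal ones, of which the lowest was at 18.9 CPM. Against DMSO distal, 1 uM TAL differed by a log2 fold change of 0.20 (SE 0.282, 95% interval -0.43 to 0.83).

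AMEX60DD019011 showed the opposite arrangement. It stood at 17.2, 21.1 and 31.8 CPM in the 1 uM TAL libraries and at 70.4, 69.2 and 72.3 CPM in the DMSO proximal libraries, which hardly varied. The log2 fold change was -1.60 (SE 0.23, 95% interval -2.11 to -1.08, edgeR adjusted p 0.183). In DMSO distal it was at 28.1 ± 2.22 CPM (SD, n = 3) and at 0.1 uM TAL at 15.1 ± 3.14 CPM (SD, n = 3). All 9 distal libraries therefore lay below every proximal one. The highest treated library, at 31.8 CPM, was slightly above the highest of the other distal libraries, at 30.6 CPM. The log2 fold change of 1 uM TAL over DMSO distal was -0.27 (SE 0.225, 95% interval -0.77 to 0.24).

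AMEX60DD031927 ranked first among the lower identifiers, and its pattern was another. The 1 uM TAL libraries were at 22.8, 23.1 and 24.9 CPM and the DMSO proximal libraries at 77.6, 90.1 and 107 CPM. On the log2 scale the treated libraries were lower by 1.95 (fold change -1.95, SE 0.273, 95% interval -2.57 to -1.34), at an edgeR adjusted p of 0.183. DMSO distal libraries were at 83.2 ± 12.5 CPM (SD, n = 3), close to proximal, with a log2 fold change between the vehicle groups of -0.14 (95% interval -0.72 to 0.45). At 0.1 uM TAL the mean was 79.7 ± 29.7 CPM (SD, n = 3), and its lowest library at 45.6 CPM was still above every 1 uM TAL library. The treated group alone stood apart in this gene. Without 0.1 uM TAL replicate 3, a library outside the comparison, the edgeR adjusted p of this difference became 0.0335, while the log2 fold change was -1.95 as before.

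AMEX60DD004780 lay at 12.6, 11.8 and 7.89 CPM in the 1 uM TAL libraries and at 3.98, 4.39 and 3.28 CPM in the DMSO proximal libraries. The log2 fold change was 1.47 (SE 0.234, 95% interval 0.94 to 1.99, edgeR adjusted p 0.219). DMSO distal was at 7.90 ± 0.672 CPM (SD, n = 3), overlapping the lowest treated library, and 0.1 uM TAL at 4.17 ± 0.424 CPM (SD, n = 3), overlapping the proximal libraries. In this gene the means of the low and the high dose thus lay on different sides of that of DMSO distal. The doses differed by 1.37 on the log2 scale (SE 0.233), at an edgeR adjusted p of 0.171.

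Identifiers in which a single group lay outside all others, as in AMEX60DD024290, AMEX60DD019011 and AMEX60DD031927, were then counted over all tested AMEX60DD identifiers. The 3 DMSO proximal libraries lay all above or all below the other 9 libraries in 350 identifiers (1.63%), 196 above and 154 below. All 3 libraries at 1 uM TAL did so in 865 (4.02%), 768 above and 97 below. For DMSO distal the number was 268 (1.24%) and for 0.1 uM TAL 118 (0.548%). Over all identifiers the shares were 1.10% for DMSO proximal, 2.45% for 1 uM TAL, 0.945% for DMSO distal and 0.563% for 0.1 uM TAL. The treated group at high dose was thus set apart in more identifiers than any other group. With DESeq2 size factors its number was 704 (3.27%), against 411 for DMSO proximal, 387 for DMSO distal and 143 for 0.1 uM TAL. With TMM factors from AMEX60DD identifiers it was 699 (3.25% of 21504), against 453, 481 and 146 in that order. The lead over the vehicle groups was smaller under these factors, and shares over all identifiers are not given there. The differences between these numbers were not tested. Were the 12 libraries exchangeable, some identifiers would be set apart by order alone, with the same share for each group of 3, ties aside. That share was not computed, so these counts are no measure of genes particular to a group. The direction of the high-dose group was less steady, with 88.8% above under the TMM factors of all identifiers. It was 72.6% under DESeq2 factors and 58.1% under AMEX60DD factors. High-dose libraries were also the deepest and had the lowest median SD of log2 CPM of the 4 groups. The part of either in this count was not tested.

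Of the 4438 identifiers in which 1 uM TAL and DMSO proximal did not overlap, 340 set DMSO proximal apart from all distal libraries, as AMEX60DD024290 did. In 855 it was 1 uM TAL that lay outside all other libraries, as for AMEX60DD031927, and in 10 both groups did so. In the remaining 3233 neither group lay outside all other libraries.

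Identifiers that follow each other in number were also compared. Among identifiers lower at 1 uM TAL with an unadjusted p under 0.05 whose next number was also tested, that next identifier was lower under the same limit in 21 of 214 cases (9.81%). Among all 10236 identifiers with a tested next number the share was 2.23%. For the higher identifiers it was 72 of 661 (10.9%) against 6.22%. Whether numbers follow the genome is not stated in the sources used here, and reads shared between near-identical genes were not tested.

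This difference was set beside the other group comparisons of the same fit. AMEX60DD identifiers at an unadjusted p under 0.05 numbered 1817 between DMSO distal and DMSO proximal (8.44%, against 6.35% of all identifiers), which is near the 1877 found here. They numbered 1158 between 1 uM TAL and DMSO distal (5.38% against 4.79%) and 1654 between 1 and 0.1 uM TAL (7.68% against 6.04%). They numbered 719 between 0.1 uM TAL and DMSO proximal (3.34% against 3.42%) and 732 between 0.1 uM TAL and DMSO distal (3.40% against 3.23%). Calls by the edgeR adjusted p were in another order. Against 0 for 1 uM TAL and DMSO proximal, 4 AMEX60DD identifiers were called between DMSO distal and DMSO proximal. Between 1 uM TAL and DMSO distal 8 were called, and between the doses 4. Between 0.1 uM TAL and DMSO proximal 5 were called, and between 0.1 uM TAL and DMSO distal 0. Over all 41884 identifiers the calls in that order were 5 (0.0119%), 10 (0.0239%), 5 (0.0119%), 6 (0.0143%) and 0 (0%). Identifiers without overlap made up 22.5% of AMEX60DD identifiers between the doses (17.7% of all identifiers), above the 20.6% found here (14.4%). They made up 16.1% between 1 uM TAL and DMSO distal (12.1%) and 14.7% between DMSO distal and DMSO proximal (10.5%). For 0.1 uM TAL they made up 9.69% against DMSO distal (7.90%) and 8.18% against DMSO proximal (7.59%). These comparisons share libraries with each other, and the differences between their numbers were not tested.

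Only the comparison of 0.1 uM TAL with DMSO distal shares no library with that of 1 uM TAL and DMSO proximal. Its fold changes ran against those described here. Over 21537 AMEX60DD identifiers the Spearman correlation of the log2 fold changes was -0.31 (Pearson -0.08), and 34.8% had the same sign. Over the 9676 identifiers with a mean of at least 5 CPM in the 12 libraries it was -0.52 (Pearson -0.29), with 29.3% of the same sign. Of the 1358 identifiers higher at 1 uM TAL than in DMSO proximal, 18.8% were higher at 0.1 uM TAL than in DMSO distal, and of the 519 lower ones 72.4% were, against 47.5% of all AMEX60DD identifiers. Their median log2 fold changes there were -0.27 and 0.28, against -0.02 over all.

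This opposition did not rest on a single library. With each of the 12 libraries left out in turn the Spearman correlation at 5 CPM or more ranged from -0.57 to -0.43, and without both 1 uM TAL replicate 1 and DMSO proximal replicate 2 it was -0.45. It was -0.51 with libraries thinned to equal depth. The points share libraries within each comparison and a common fit, genes are not independent, and the correlation is a description. Mean totals were 12991988 and 8942947 counts for 1 uM TAL and DMSO proximal, and 9600693 and 10046259 for 0.1 uM TAL and DMSO distal. The 100 most abundant identifiers held 39.3% and 40.9% of counts in the first pair of groups, and 43.2% and 42.2% in the second. Apart from the thinning to equal depth, the part of these differences in the correlation was not tested.

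**Figure D5:**
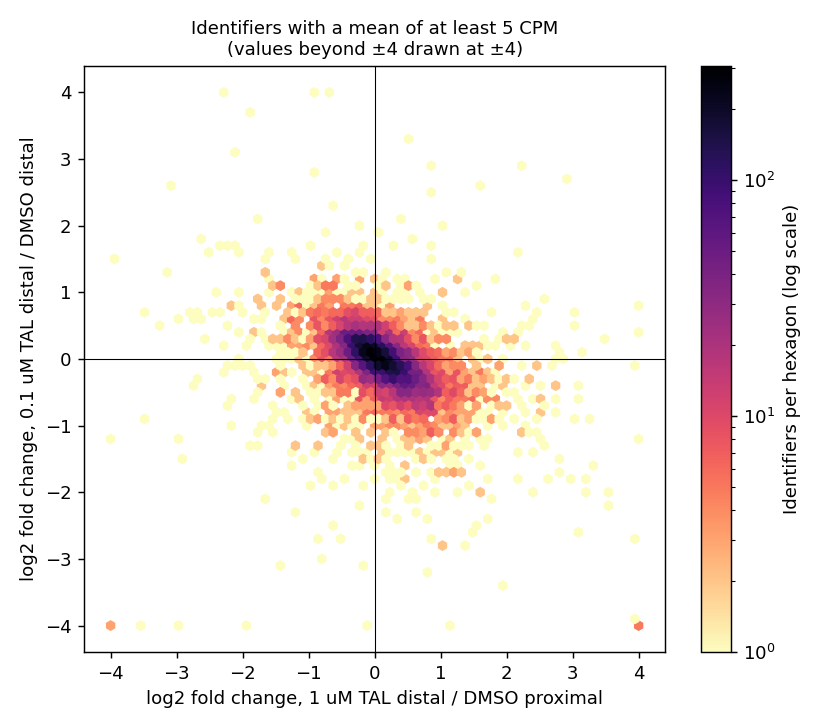
log2 fold change of 1 uM TAL distal over DMSO proximal (horizontal) against that of 0.1 uM TAL distal over DMSO distal (vertical), which have no library in common, for 9676 AMEX60DD identifiers with a mean of at least 5 CPM; colour gives identifiers per hexagon on a log scale, and the 23 identifiers beyond 4 on either axis are drawn at 4. The cloud slopes downward, with a Spearman correlation of -0.52.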

How the data were processed

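RNA of pooled blastemas was sequenced with 150-bp reads, per the labels. The authors deposited estimated counts per gene; Trimmomatic 0.38 and Salmon 0.13.1 are named in the submitters' processing notes, and the index, annotation and gene summary are not given in the sources used here. Of 3389 identifiers above 0 in exactly 2 of the 12 libraries, and under 20 in both, the smaller value ran from 0.728 to 12.9 (10th to 90th percentile) and 3.98% were within 0.02 of a whole number. In 46.6% both values agreed within 15%. The worth of 1 read thus differs between genes, and counting errors are approximate. Of the 15 columns, 3 matched no sample and were not used.

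Estimated counts were rounded and filtered with filterByExpr. They were scaled by TMM and tested with edgeR 4.0.16 (quasi-likelihood, 12 libraries, Benjamini-Hochberg over all identifiers; SE as log2 fold change over the root of F), in R 4.3.3. CPM were computed after TMM, and log2 CPM used a prior count of 2. Alternatives used limma 3.58.1 and DESeq2 1.42.0. Scripts were tested on simulated counts. Replicates differed by more than sampling noise in every group (chi-square per degree of freedom 13.6 to 89.3). Named genes were the 2 highest-ranked by p in each direction with no overlap and at least 1 CPM in a group. The comparison, lists and tests were chosen with earlier results of these data known.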

Additional observations from a re-analysis of the deposited data

How the results depend on the processing

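Counts below are of AMEX60DD identifiers in the comparison of 1 uM TAL distal with DMSO proximal, and shares over all identifiers are not given for the alternatives. Where no value shows it, the cause of a change was not tested. Against 0 calls, the fit of only the 6 libraries compared called 2, both lower at 1 uM TAL and neither among the 4 named (1473 at an unadjusted p under 0.05), limma voom with sample quality weights called 2 (1 higher, 1 lower; 3090) and the DESeq2 Wald test called 316 (167 higher, 149 lower; 2579), all 4 named identifiers included. Leaving out 1 library gave 0 to 2 calls, 1002 to 2817 at an unadjusted p under 0.05, 4437 to 8812 with no overlap and a median log2 fold change of 0.0162 to 0.1093; fewer libraries make a lack of overlap more frequent. With AMEX60DD identifiers alone in the fit, 2859 had an unadjusted p under 0.05 and the median was -0.0117. Without the 2 libraries low in AMEX60DD016881, an alternative chosen after the data were seen, 22961 were tested. Of these 918 had an unadjusted p under 0.05 and 9713 showed no overlap. The median was 0.0108 with DESeq2 size factors, 0.0205 without a filter, 0.0111 with at least 10 counts in every library and 0.0113 by the Wald test. For the named identifiers the log2 fold change kept its sign in each alternative run, from 1.94 to 2.13 for AMEX60DD024290, 1.32 to 1.58 for AMEX60DD004780, -2.06 to -1.83 for AMEX60DD031927 and -1.95 to -1.43 for AMEX60DD019011.

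Median correlations within 1 uM TAL, within DMSO proximal and between them (0.908, 0.857 and 0.848) became 0.962, 0.915 and 0.911 over identifiers with at least 10 counts in every library, and the last 2 became 0.890 and 0.881 by Pearson's r with a prior count of 5. The mean correlation with proximal minus that with distal vehicle libraries ranged from -0.0343 to -0.0044 over the correlation measures and libraries left out, and by mean absolute log2 difference it was -0.0733. At 10 counts in place of 5 the identifiers present in a single group numbered 66 and 16, and after thinning the first number was 71. The correlation with 0.1 uM TAL vs DMSO distal, -0.31 over all tested identifiers, was -0.15 without a filter, -0.49 with at least 10 counts in every library and -0.32 to -0.21 with a library left out. Restricted to 5 CPM or more it was -0.52, and in the same settings -0.52, -0.54 and -0.57 to -0.43. All but the limit of 5 CPM were chosen after the data were seen.

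With the replicate block 0 identifiers were called and 1330 had an unadjusted p under 0.05. Deviations of same-numbered 1 uM TAL and DMSO proximal libraries correlated at -0.0197, -0.0877 and 0.0867, and those of differently numbered ones at -0.1378 to 0.1475. For DMSO proximal and DMSO distal the same-numbered values were 0.0997, 0.1777 and 0.0223. The differently numbered ones ranged from -0.1599 to 0.0685. What same-numbered libraries share was not tested.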
